A study of Mus musculus with 8 samples.

Results

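The amino acid transporter families described here are the solute carrier families Slc1, Slc3, Slc6, Slc7, Slc36, Slc38 and Slc43, measured in liver RNA of mice given an adenovirus labelled AdLeXis or one labelled AdGFP. Members were taken by name: each non-control probe whose gene name in the scanner files starts with one of these family names and a member number. This gave 65 of the 34836 names on the array, carried by 84 probes. Of the 65 members, 39 passed the filter on dim probes and were tested, among 23975 genes tested in all. There were 4 AdLeXis arrays and 4 AdGFP arrays. AdLeXis carries LeXis, a non-coding RNA whose gene neighbours Abca1, the cholesterol exporter, and AdGFP carries green fluorescent protein, so both groups had received a virus. The mice of both groups were of the bl6 strain, were kept on chow and were 12 weeks old, and liver RNA was isolated on day 6. The treatment text in the labels names other vectors, a control and one against Raly, whereas the titles and the treatment tag name AdLeXis and AdGFP; samples were grouped by the tag. Whether every array holds RNA of a different animal is not in the labels, so the spread behind each p-value may be technical in part.

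Amino acids cross membranes on carriers that differ in what drives them. Slc1, Slc6 and Slc38 carriers are mostly coupled to the sodium gradient and concentrate their substrates in the cell. Slc36 carriers are mostly coupled to protons, and Slc43 carriers let branched-chain and aromatic amino acids run down their gradient. Slc7 holds the cationic amino acid carriers, which work alone, and the light chains, exchangers that are held at the membrane by a heavy chain of the Slc3 family. In liver these carriers bring in the nitrogen and carbon for urea, glucose and protein synthesis, and several lysosomal members report amino acid supply to the kinase complex mTORC1.

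Each value below is a log2 intensity scaled to the 75th percentile of its array. Before scaling that percentile was 381 to 448 on AdLeXis arrays and 220 to 297 on AdGFP arrays, and the share of spots well above background was 62.6% to 67.7% in AdLeXis and 58.9% to 62.5% in AdGFP. The arrays were on 1 slide, the AdLeXis arrays in 1 position row and the AdGFP arrays in the other, so position row and group cannot be told apart. Arrays of one group correlated at 0.991 to 0.994 across genes and arrays of different groups at 0.982 to 0.989. As a check of the labels, 3 probes of the non-coding region beside Abca1 averaged 9.70 to 10.49 on AdLeXis arrays and 0.78 to 2.58 on AdGFP arrays, while Raly gave 11.63 and 11.46 (log2 difference 0.17, adjusted p = 0.358). Abca1 itself averaged 12.08 in AdLeXis and 11.30 in AdGFP and did not pass (log2 difference 0.77, limma adjusted p = 0.0629). Marker levels of some cell types moved with the group. Of the T and NK cell markers, 10 of 13 measured were lower in AdLeXis, with a summed intensity of 9136 to 9926 in AdLeXis and 17868 to 18958 in AdGFP. The 3 that did not pass were Cd247 (log2 difference -0.35) and the NK cell receptors Klrb1c (-0.0459) and Ncr1 (0.73, limma adjusted p = 0.0948). Of the hepatocyte markers, 9 of 10 were lower, with a median log2 difference of -0.52. Macrophage markers were lower for 5 of 12, stellate cell markers for 2 of 10 and bile duct and neuron markers for 1 each of 6 and 5. Those are 41.7% of macrophage, 20% of stellate cell, 16.7% of bile duct and 20% of neuron markers. Over all genes tested 17.5% were called at an adjusted p under 0.05 (limma), 8.77% lower. The marker calls were all lower, so 8.77% is the like share. The last 3 shares lie above it on 1 or 2 genes each. B cell, neutrophil, endothelial and erythroid markers gave 0 calls by limma, with 1 erythroid marker at an unadjusted p under 0.05. The part of these shifts in the transporter values was not tested, and in whole liver fewer cells of a type and less RNA per cell cannot be told apart. Before scaling the 75th percentile was higher on AdLeXis arrays, so scaling lowers their values relative to the AdGFP arrays. The part of scaling in the marker shifts was not tested.

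Of the 39 tested members, 5 were higher and 5 were lower in AdLeXis at an adjusted p under 0.05 (limma, Benjamini-Hochberg over all genes tested). Over all genes tested 17.5% were called, 8.73% higher and 8.77% lower, and the 10 called members are 25.6% of those tested. The higher members were Slc38a5, Slc43a1, Slc6a8, Slc6a16 and Slc6a13, and the lower members were Slc1a4, Slc7a1, Slc38a1, Slc43a2 and Slc7a8. The median log2 difference was -0.13 over the 39 members and -0.0020 over all genes, with 15 members above 0 and 24 below. The members' median was 0.0107 with normexp background correction and quantile normalization, and -0.0714 without AdLeXis replicate 1. The AdLeXis and AdGFP arrays did not overlap for 11 members, against 24.7% of all genes tested. Slc38a5 was the 1 member called with at least a 2-fold difference, against 3.02% of all genes. Its AdLeXis arrays alone were enough for it to pass the filter on dim probes. With arrays scaled on their medians instead, 4 members were higher and 8 lower, and 30.1% of the calls over all genes were higher, against 49.9% with the scaling used here. The directions differed within and between families, on few calls each. Slc38 and Slc43 each held a higher and a lower member, the 3 calls in Slc6 were higher, and the 1 call in Slc1 and 2 in Slc7 were lower. Of the 9 tested Slc6 members 6 lay below 0, and with median scaling Slc6a6 passed as lower.

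**Figure D1:**
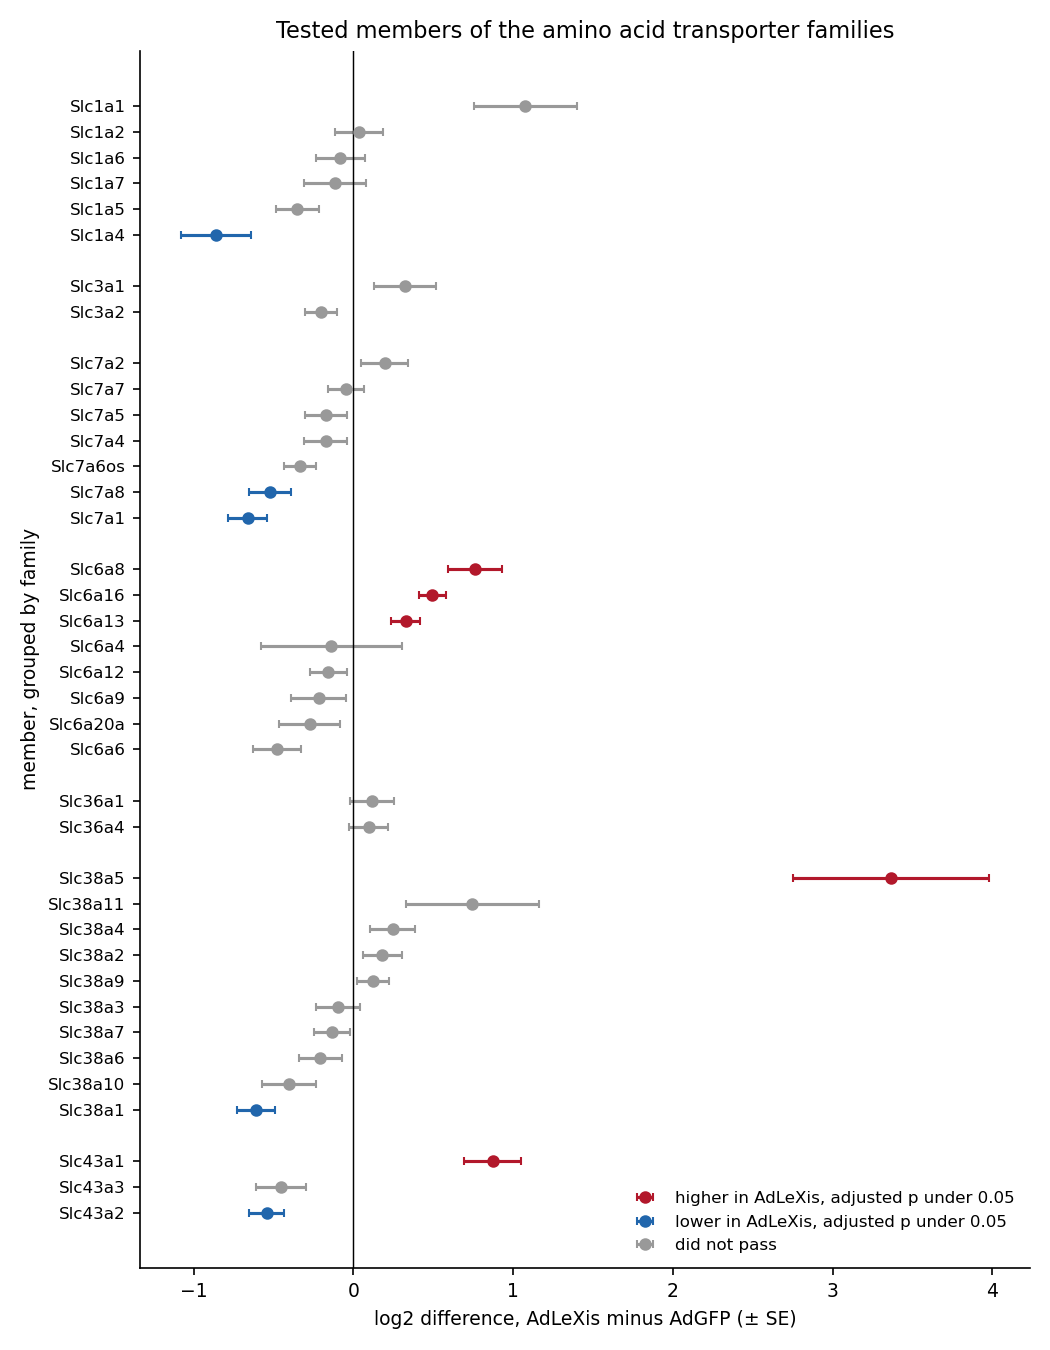
Log2 difference, AdLeXis minus AdGFP, for the tested members grouped by family, 1 of the 39 left out (points, with bars for the standard error of the limma fit, 4 arrays per group). Red and blue points are the 5 higher and 5 lower members, and Slc38a5 at 3.37 lies apart from the others, which run from -0.86 to 1.08.

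The Slc38 family holds the sodium-coupled neutral amino acid carriers that take up or release glutamine, alanine and other small neutral amino acids. Slc38a5, which moves glutamine, asparagine, histidine, serine and glycine with sodium and in exchange for protons, stood at 5.47, 6.14, 6.69 and 6.33 on the AdLeXis arrays, against 0.93, 4.13, 3.25 and 2.85 on the AdGFP arrays. The lowest AdLeXis array lay above the highest AdGFP array. Its mean was 6.16 ± 0.51 in AdLeXis and 2.79 ± 1.35 in AdGFP (SD, n = 4 each), a log2 difference of 3.37 with a standard error (SE) of 0.61, or 10.3-fold (limma adjusted p = 0.00898). The size rests on a dim probe: it was well above background on 4 AdLeXis arrays and on 2 of the AdGFP arrays, and with normexp background correction the log2 difference was 0.52 (adjusted p = 0.00383). Without AdGFP replicate 1, the lowest array, it was 2.75 (adjusted p = 0.00674). The probe lies on chromosome X at 7857241 to 7857300 (mm9).

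Slc38a1, a glutamine uptake carrier known best from brain, moved the other way. It stood at 9.06, 8.75, 8.58 and 8.87 on the AdLeXis arrays, against 9.54, 9.41, 9.27 and 9.48 on the AdGFP arrays. The groups did not overlap, and the log2 difference was -0.61 (SE 0.12, limma adjusted p = 0.0112), a level 0.655 times that in AdGFP. Its probe lies on chromosome 15 at 96406793 to 96406852 (mm9). The other kept probes of Slc38a1 gave -0.54 (adjusted p = 0.0133 over all kept probes) and -0.42 (adjusted p = 0.485), and with the mean of its probes the gene gave -0.52 (adjusted p = 0.0634). The main glutamine and alanine carriers of hepatocytes did not pass. Slc38a3, the glutamine carrier of hepatocytes around the central vein, averaged 14.76 ± 0.19 in AdLeXis and 14.85 ± 0.22 in AdGFP (SD, n = 4 each; adjusted p = 0.682). Slc38a4 gave a log2 difference of 0.25 (adjusted p = 0.266), and Slc38a2, which is induced in many cells when amino acids run short, gave 0.18 (adjusted p = 0.346). Within each array, the log2 ratio of Slc38a5 to Slc38a1 signal was -3.59, -2.62, -1.89 and -2.54 in AdLeXis and -8.61, -5.28, -6.01 and -6.63 in AdGFP. The ratio was higher on each AdLeXis array than on any AdGFP array, by 3.98 on average. The pair was chosen because its members were called in opposite directions on arrays that did not overlap, which fixes that outcome, so the ratio is a description and was given no test.

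The rest of the Slc38 family holds carriers inside the cell and carriers of less certain substrate. Slc38a9, the lysosomal arginine sensor that signals to mTORC1, stood at 8.64 to 8.73 on AdLeXis arrays and 8.36 to 8.76 on AdGFP arrays (log2 difference 0.12, adjusted p = 0.457). Its other kept probes gave 0.14 and 0.70, and neither passed. Slc38a7, a lysosomal glutamine exporter, gave -0.13 (adjusted p = 0.469). Slc38a6 gave -0.21 (adjusted p = 0.330) and Slc38a10 gave -0.40 (adjusted p = 0.145). Slc38a11, well above background on 4 AdLeXis and 2 AdGFP arrays, gave 0.74 (SE 0.42, adjusted p = 0.262) and -0.41 with normexp correction, so its direction depended on how background was handled. Over the 10 tested Slc38 members the median was 0.0122, and it lay below 0 with median scaling (-0.0706), with normexp correction (-0.15), with normexp correction and quantile normalization (-0.0352), with no filter on dim probes (-0.0975), with probes well above background on all 8 arrays (-0.12) and without AdLeXis replicate 3 (-0.0171).

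**Figure D2:**
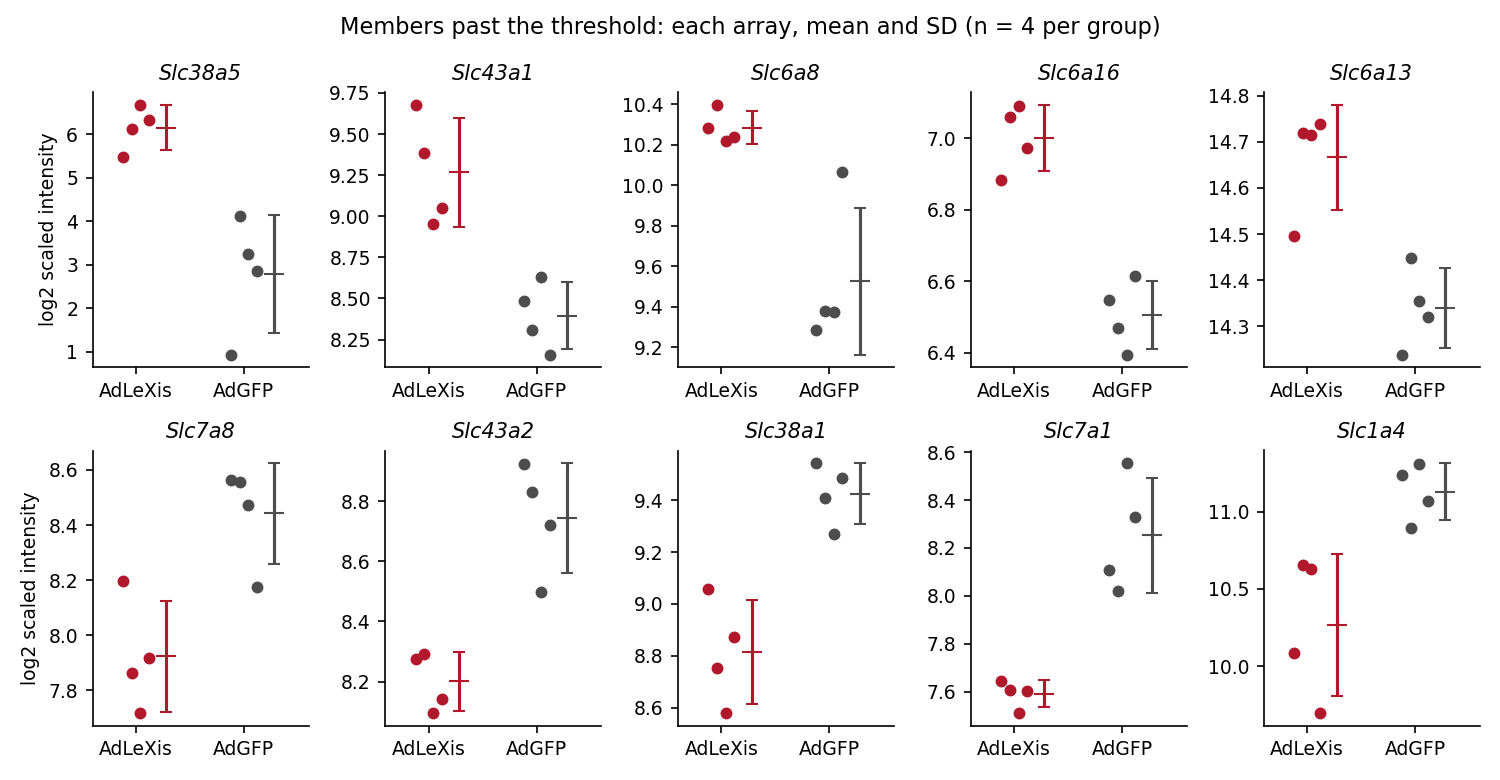
Log2 scaled intensity of the 10 called members on each array, with AdLeXis left of AdGFP in each panel and the mean and SD beside the points (n = 4 per group; the vertical scale differs between panels and does not start at 0). The groups are apart for 9 members and touch for Slc7a8, whose highest AdLeXis array (8.20) lies just above the lowest AdGFP array (8.17).

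Slc43 held a higher and a lower member among 3. Slc43a1, a facilitative carrier of leucine, isoleucine, valine and phenylalanine that liver expresses, stood at 9.68, 9.39, 8.95 and 9.05 on the AdLeXis arrays, against 8.49, 8.31, 8.63 and 8.16 on the AdGFP arrays. The groups did not overlap. The log2 difference was 0.87 (SE 0.18, limma adjusted p = 0.0134), or 1.83-fold, and the call held under each of 19 alternatives. Slc43a2, a related carrier of the same substrates, stood at 8.28, 8.29, 8.10 and 8.14 on the AdLeXis arrays, against 8.92, 8.83, 8.50 and 8.72 on the AdGFP arrays. It was lower on each AdLeXis array than on any AdGFP array, by 0.54 log2 units on average (-0.54, SE 0.11, limma adjusted p = 0.0129), and with normexp correction it gave -0.24 (adjusted p = 0.0865). The log2 ratio of Slc43a1 to Slc43a2 signal was 1.40, 1.09, 0.86 and 0.91 in AdLeXis and -0.44, -0.52, 0.13 and -0.56 in AdGFP. The means differed by 1.41, again with no test, since this pair too was chosen for its opposite calls. Slc43a3, which carries purine nucleobases rather than amino acids, averaged 11.43 ± 0.25 in AdLeXis and 11.88 ± 0.22 in AdGFP (SD, n = 4 each; log2 difference -0.45). Its groups did not overlap, yet it missed the threshold (adjusted p = 0.0790), and it passed with median scaling (adjusted p = 0.0497) and with normexp correction (adjusted p = 0.00871). The probes lie in mm9 at chromosome 2, 84703578 to 84703637, for Slc43a1 and chromosome 11, 75387219 to 75387278, for Slc43a2.

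Promoter sequence is printed for called members of Slc38 and Slc43, the families with calls in both directions. It is the 250 bases before the RefSeq transcription start site (GRCm38.p6), 5′ to 3′ on the strand of the gene. Slc7a11, the cystine and glutamate exchanger, is added as a member that carries the element searched for. That element is TGATGNAA, the core of the site bound by C/EBP and ATF4 dimers at genes of the amino acid response, looked for on both strands, and capitals mark its matches. Slc43a2 has more than 1 listed start site, and the window of the most upstream one is shown.
Slc38a5, chrX:8271131-8271380, plus strand: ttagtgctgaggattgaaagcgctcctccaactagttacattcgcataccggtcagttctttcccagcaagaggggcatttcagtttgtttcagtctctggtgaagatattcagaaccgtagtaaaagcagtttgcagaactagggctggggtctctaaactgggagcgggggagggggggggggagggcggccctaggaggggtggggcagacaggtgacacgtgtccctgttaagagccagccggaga
Slc43a1, chr2:84840073-84840322, plus strand: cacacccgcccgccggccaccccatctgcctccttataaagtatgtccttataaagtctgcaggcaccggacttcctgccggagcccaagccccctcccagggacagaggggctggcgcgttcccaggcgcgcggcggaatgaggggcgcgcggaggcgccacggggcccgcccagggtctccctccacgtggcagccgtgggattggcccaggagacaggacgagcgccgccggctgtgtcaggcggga
Slc43a2, chr11:75531444-75531693, plus strand: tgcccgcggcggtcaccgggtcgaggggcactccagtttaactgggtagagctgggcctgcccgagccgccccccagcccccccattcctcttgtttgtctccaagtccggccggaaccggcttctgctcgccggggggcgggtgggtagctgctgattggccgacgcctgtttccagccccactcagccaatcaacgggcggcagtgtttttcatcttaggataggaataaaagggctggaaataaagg
Slc7a11, chr3:50443614-50443863, minus strand: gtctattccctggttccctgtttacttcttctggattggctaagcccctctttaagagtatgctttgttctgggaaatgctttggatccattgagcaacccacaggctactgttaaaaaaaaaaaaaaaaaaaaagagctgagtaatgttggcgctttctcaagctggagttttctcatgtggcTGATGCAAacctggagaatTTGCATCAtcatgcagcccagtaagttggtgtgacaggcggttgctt
The element was found in 1056 of 27025 genes with a promoter in the table (3.91%), in 2 of 47 members with a promoter there, and in 0 of the 8 called members with one. The members that held it were Slc7a11, with 2 matches on opposite strands in the window above, and Slc7a7. Of the called members, Slc38a1 and Slc6a8 were not matched in the table. A match is a run of letters and no evidence of binding, and the absence of one says only that these letters are not in the window. The Slc43a1 window was 70.8% G and C and the Slc38a5 window 55.2%, where the median of all promoters in the table was 52.4%.

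In the Slc1 family, the carriers of glutamate and of small neutral amino acids, 1 of 6 tested members was lower and none was higher. Slc1a4, a sodium-dependent exchanger of alanine, serine and cysteine, stood at 10.09, 10.65, 10.63 and 9.70 on the AdLeXis arrays, against 11.24, 10.90, 11.31 and 11.07 on the AdGFP arrays. The groups did not overlap, although the AdLeXis arrays were more widely spread. The log2 difference was -0.86 (SE 0.22, limma adjusted p = 0.0311), a level 0.550 times that in AdGFP, for a probe on chromosome 11 at 20202615 to 20202674 (mm9). Leaving out AdGFP replicate 1, 3 or 4, or AdLeXis replicate 1 or 4, ended the call, with adjusted p-values of 0.0501 to 0.0766, as did normexp correction with quantile normalization (-0.58, adjusted p = 0.0753), no filter on dim probes (adjusted p = 0.0606) and a block on the replicate number (adjusted p = 0.0528). Slc1a5, the related glutamine exchanger, gave -0.35 (adjusted p = 0.110) and -0.47 on its other kept probe.

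The glutamate carriers of the family did not pass. Slc1a2, found in hepatocytes around the central vein as well as in astrocytes, averaged 11.59 ± 0.29 in AdLeXis and 11.56 ± 0.14 in AdGFP (SD, n = 4 each; adjusted p = 0.909), and its 3 kept probes ran from -0.37 to 0.0334. Slc1a1, which carries glutamate, aspartate and cysteine, stood at 4.12, 4.01, 3.49 and 5.07 on the AdLeXis arrays, against 2.98, 3.61, 2.79 and 3.002 on the AdGFP arrays. Its groups overlapped at a single pair of arrays, and it missed the threshold (log2 difference 1.08, adjusted p = 0.0532), on a probe well above background on 4 AdLeXis arrays and 1 AdGFP array. With normexp correction it gave -0.29, and without AdLeXis replicate 3 it passed (1.30, adjusted p = 0.0307). Slc1a6 and Slc1a7, known from brain and retina, gave -0.0830 and -0.11 at low signal. The median of the Slc1 family was -0.0989, and it was 0.0347 with normexp correction and quantile normalization, 0.00763 without AdGFP replicate 4 and -0.19 without AdGFP replicate 3.

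All 3 calls in the Slc6 family, the sodium- and chloride-coupled carriers, were higher in AdLeXis, and 2 of them are carriers of substrates other than protein amino acids. Slc6a8, the creatine carrier, stood at 10.28, 10.40, 10.22 and 10.24 on the AdLeXis arrays, against 9.28, 9.38, 9.38 and 10.06 on the AdGFP arrays. The AdLeXis arrays lay close together and above the AdGFP arrays, of which replicate 4 was nearest to them. The log2 difference was 0.76 (SE 0.17, limma adjusted p = 0.0189), or 1.69-fold, for a probe on chromosome X at 70927775 to 70927834 (mm9). It narrowly lost its call without AdGFP replicate 1, AdGFP replicate 2 or AdLeXis replicate 2 (0.68 to 0.72, adjusted p = 0.0507 to 0.0524).

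Slc6a13, a carrier of GABA and taurine at the hepatocyte surface, stood at 14.50, 14.72, 14.71 and 14.74 on the AdLeXis arrays, against 14.24, 14.45, 14.35 and 14.32 on the AdGFP arrays. The groups did not overlap, but the difference was small, a log2 value of 0.33 (SE 0.09, limma adjusted p = 0.0384), and it did not pass with median scaling (0.24, adjusted p = 0.202), with no filter on dim probes (adjusted p = 0.0755) or with a block on the replicate number (adjusted p = 0.0572). The call was lost without any single AdGFP array and without AdLeXis replicate 2, 3 or 4, with adjusted p-values of 0.0538 to 0.101. Its probe lies on chromosome 6 at 121287597 to 121287656 (mm9), beside that of Slc6a12, the betaine and GABA carrier, which gave -0.16 (adjusted p = 0.396). Slc6a16, an orphan carrier related to those of neutral amino acids, stood at 6.88, 7.06, 7.09 and 6.97 on the AdLeXis arrays, against 6.55, 6.47, 6.39 and 6.61 on the AdGFP arrays. The arrays of each group lay close together and the groups were apart. The log2 difference was 0.49 (SE 0.09, limma adjusted p = 0.00730; probe on chromosome 7 at 52528430 to 52528489 in mm9), and with normexp correction it was 0.11 (adjusted p = 0.432).

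The other Slc6 members did not pass. Slc6a6, the taurine carrier, stood at 11.23 to 11.78 on AdLeXis arrays and 11.77 to 12.28 on AdGFP arrays, and gave -0.48 (SE 0.15, adjusted p = 0.0603). The groups overlapped at 1 array each. It passed with median scaling (-0.56, adjusted p = 0.0210) and with normexp correction (-0.46, adjusted p = 0.0203). Slc6a9, the glycine carrier, gave -0.22 (adjusted p = 0.428), and 0.22 with normexp correction. Slc6a20a, a proline carrier, gave -0.27 (adjusted p = 0.361). Slc6a4, the serotonin carrier, gave -0.14 near background (adjusted p = 0.868). The median over the 9 tested Slc6 members was -0.14, and it lay above 0 with normexp correction (0.0976), with normexp correction and quantile normalization (0.0107) and without AdGFP replicate 2 (0.0167).

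Of the cationic carriers in Slc7, which import arginine, lysine and ornithine, 1 of 3 tested was lower. Slc7a1, the widely expressed arginine carrier, stood at 7.64, 7.61, 7.51 and 7.60 on the AdLeXis arrays, against 8.11, 8.02, 8.55 and 8.33 on the AdGFP arrays. Each AdLeXis array lay below each AdGFP array. The mean was 7.59 ± 0.06 in AdLeXis and 8.25 ± 0.24 in AdGFP (SD, n = 4 each), which differ by -0.66 on that scale (SE 0.12, limma adjusted p = 0.00952), and the call held under each of 19 alternatives. Its probe lies on chromosome 5 at 149139957 to 149140016 (mm9). Slc7a2, the cationic carrier with a liver-enriched isoform, averaged 10.45 ± 0.09 in AdLeXis and 10.26 ± 0.30 in AdGFP (SD, n = 4 each; adjusted p = 0.405). A test of the difference between Slc7a1 and Slc7a2 was not made. Slc7a4, for which no transport has been settled, gave -0.17 (adjusted p = 0.414).

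Among the heteromeric exchangers, 1 of the 3 tested light chains was lower and neither heavy chain passed. Slc7a8, a light chain for large and small neutral amino acids, stood at 8.20, 7.86, 7.72 and 7.92 on the AdLeXis arrays, against 8.56, 8.56, 8.47 and 8.17 on the AdGFP arrays. The groups overlapped at 1 array each. The log2 difference was -0.52 (SE 0.13, limma adjusted p = 0.0305), for a probe printed in 10 spots per array, on chromosome 14 at 55341137 to 55341196 (mm9). Leaving out AdGFP replicate 1, 2 or 3, or AdLeXis replicate 2, 3 or 4, ended the call (adjusted p = 0.0683 to 0.0782), as did normexp correction (-0.30, adjusted p = 0.0533) and no filter on dim probes (adjusted p = 0.0610). Slc7a5, a light chain that brings in leucine and is typical of dividing cells, gave -0.17 (adjusted p = 0.415). Slc7a7, a light chain that releases cationic amino acids in exchange for neutral ones, gave -0.0459 (adjusted p = 0.820).

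The heavy chains, which bring the light chains to the membrane, gave values of opposite sign. Slc3a2, the partner of Slc7a5, Slc7a7 and Slc7a8, stood at 12.80, 12.50, 12.52 and 12.44 on the AdLeXis arrays, against 12.75, 12.88, 12.71 and 12.73 on the AdGFP arrays (log2 difference -0.20, adjusted p = 0.202). AdLeXis replicate 1 lay among the AdGFP arrays and the other AdLeXis arrays below them. Slc3a1, the partner of Slc7a9 in kidney and gut, averaged 10.66 ± 0.26 in AdLeXis and 10.34 ± 0.34 in AdGFP (SD, n = 4 each; adjusted p = 0.289). The log2 ratio of Slc7a8 to Slc3a2 signal within an array averaged -4.64 ± 0.12 in AdLeXis and -4.33 ± 0.16 in AdGFP (SD, n = 4 each), a difference of -0.32 (exact permutation test over 70 relabellings, two-sided p = 0.0571, 0.171 adjusted over 3 ratios, where 0.0286 is the smallest p possible). For Slc7a7 and Slc7a5 the ratio to Slc3a2 differed by 0.16 (exact permutation p = 0.371) and 0.0309 (exact permutation p = 0.857). None of the 3 ratios to the heavy chain passed. With 4 arrays per group, 1 ratio alone at the smallest possible p could not have passed after adjustment.

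**Figure D3:**
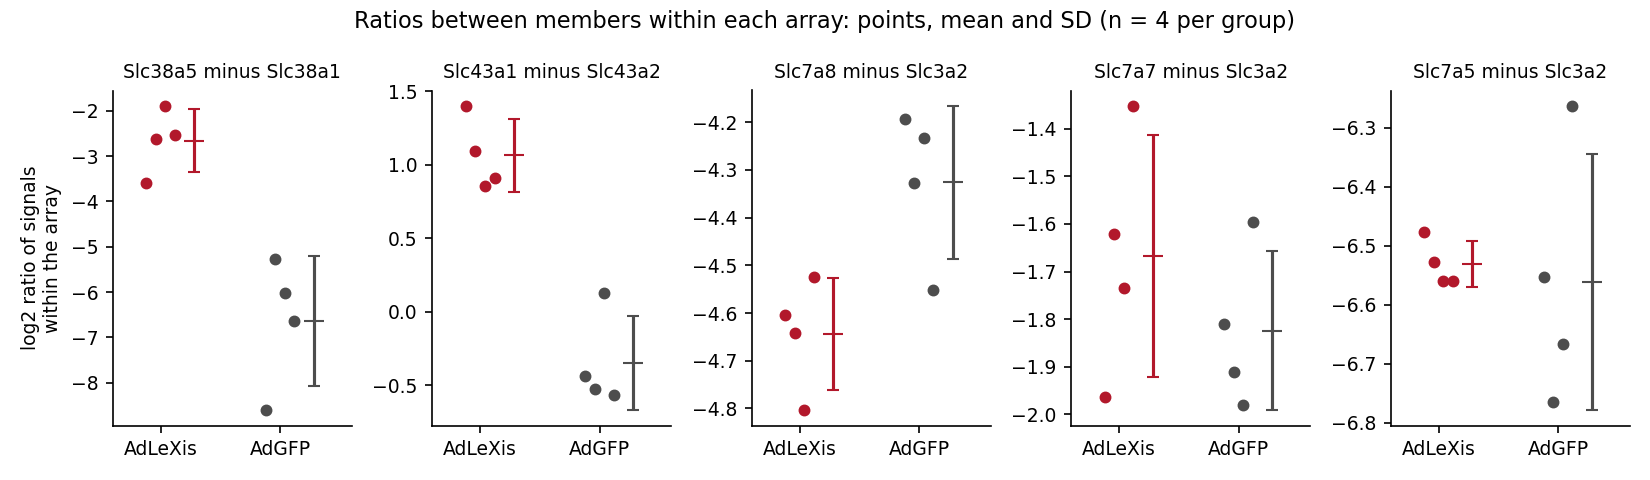
Log2 ratio of the signals of 2 members within each array, AdLeXis left of AdGFP, with mean and SD (n = 4 per group; vertical scales differ between panels). The ratios of Slc38a5 to Slc38a1 and of Slc43a1 to Slc43a2 are apart between the groups by 3.98 and 1.41, while those of the light chains Slc7a8, Slc7a7 and Slc7a5 to Slc3a2 differ by -0.32, 0.16 and 0.0309 and overlap. A ratio between probes has no meaning as a relative level, and its difference between groups is what is shown.

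The Slc36 carriers mostly move small amino acids with protons, out of lysosomes or across the gut wall. They gave no call among 2 tested members (limma, 0 at an unadjusted p under 0.05). Slc36a1, a lysosomal carrier of proline, glycine and alanine, stood at 6.77 to 7.41 on AdLeXis arrays and 6.91 to 7.06 on AdGFP arrays (log2 difference 0.12, adjusted p = 0.615), and its other kept probe gave -0.0892. Slc36a4, a related carrier of proline and tryptophan, gave 0.0963 (adjusted p = 0.637). The AdLeXis range covered the AdGFP range for Slc36a1.

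The remaining 26 members were not tested. For 18 of them no probe was well above background on any array, among them the glial glutamate carrier Slc1a3, the neutral amino acid carrier Slc6a19 of kidney and gut and the light chain Slc7a10 of brain. Of the others, 4 were well above background on AdLeXis arrays alone: Slc6a7, Slc7a15 and Slc7a3 on 3 arrays each and Slc7a9 on 1. Slc6a7, a proline carrier of neurons, stood at 3.57, 3.03, 3.92 and 2.84 on the AdLeXis arrays and at 2.81, 2.75, 2.47 and 3.05 on the AdGFP arrays. The AdLeXis mean was set against a limit for AdGFP, built on the dimmest signal that counted as well above background. The ratio was 1.36 for Slc6a7, 1.12 for Slc7a15, 1.03 for Slc7a3, a cationic carrier of brain, and 0.479 for Slc7a9. The AdLeXis means include arrays on which the member was not well above background, so these ratios are not lower bounds on a fold. The groups overlapped for all 4 members. Slc7a6, a light chain, and Slc6a17, a vesicular carrier of neurons, were well above background on 1 AdGFP array alone. Slc7a6 stood at 1.87, 1.95, 2.51 and 2.27 on the AdLeXis arrays, against 2.55, 3.08, 2.81 and 3.01 on the AdGFP arrays. Its groups did not overlap. The ratio of the AdGFP mean to the same kind of limit for AdLeXis was 1.19 for Slc7a6 and 0.845 for Slc6a17. With 1 AdGFP array well above background for each, these ratios are no lower bounds either. Slc36a3 reached that level on 1 array of each group, and Slc7a11, which takes up cystine and is induced in stressed cells, on 1 AdLeXis array and 2 AdGFP arrays. Slc7a11 stood at 0.54, 1.99, 2.54 and 3.45 on the AdLeXis arrays, against 5.32, 0.85, 1.14 and 4.48 on the AdGFP arrays, so the arrays of each group differed from each other by more than the groups did.

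**Figure D4:**
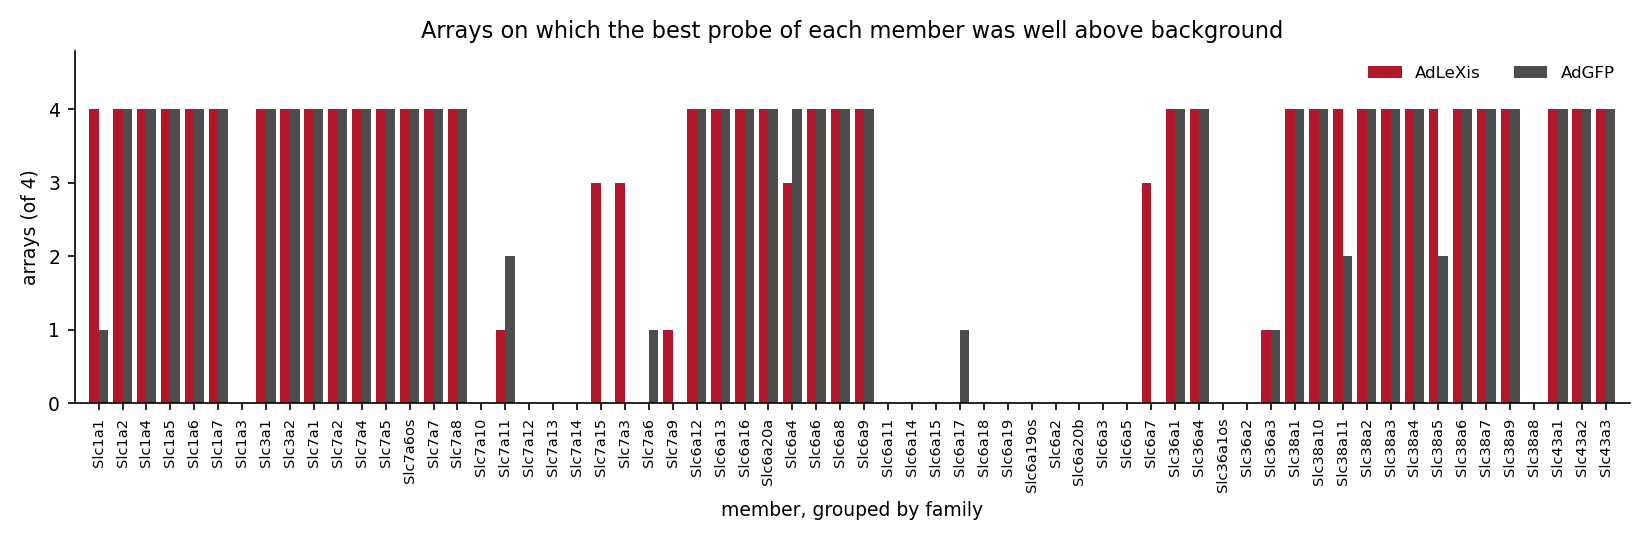
Number of arrays (of 4 per group) on which the best probe of each member was well above background, AdLeXis bars left of AdGFP bars, with 1 of the 65 members left out. Of the 39 tested members, the one left out included, 34 reached that level on all arrays, 4 on more AdLeXis than AdGFP arrays and 1, Slc6a4, on fewer. A member without bars, such as Slc1a3, did not reach it on any array.

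The rule by name also takes in 3 entries named for the strand opposite a carrier gene. Slc36a1os and Slc6a19os are non-coding, and no array had either of them well above background. Slc7a6os is a protein-coding neighbour of Slc7a6 and no amino acid carrier. It stood at 9.62, 9.81, 9.94 and 9.58 on the AdLeXis arrays, against 10.05, 10.10, 10.12 and 10.01 on the AdGFP arrays. The groups did not overlap, and it missed the threshold with a log2 difference of -0.33 (SE 0.10, adjusted p = 0.0505). Slc6a21 is on the array under another name, so the rule leaves it out, and it gave 0.26 (adjusted p = 0.630).

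Genes that respond to amino acid shortage or use amino acids were read beside the carriers, from lists of textbook members. Of 25 targets of ATF4, the transcription factor of the amino acid response, 1 was higher and 5 were lower, which is 24% called against 17.5% of all genes tested, with a median log2 difference of -0.0978. Chac1, which degrades glutathione, averaged 10.90 ± 0.58 in AdLeXis and 8.95 ± 0.30 in AdGFP (SD, n = 4 each; log2 difference 1.95, limma adjusted p = 0.00388). Atf3, a stress-induced transcription factor, differed by -1.10 (adjusted p = 0.00118) and Cbs, which makes cystathionine from serine and homocysteine, by -0.62 (adjusted p = 0.00488). The other lower targets were Psat1, Atf5 and Ppp1r15a, at -0.72 to -0.42. Without single arrays Atf5 and Ppp1r15a each lost the call in 3 of 8 fits, and neither passed with normexp correction (adjusted p = 0.376 and 0.316). The list holds no member of the carrier families. Of the 20 cytosolic aminoacyl-tRNA synthetases, 0 were called by limma and 3 lay at an unadjusted p under 0.05, with differences between -0.29 and 1.16 and a median of 0.0034. The highest value is that of Farsa, whose AdGFP arrays were widely spread (SD 2.02, against 0.0849 in AdLeXis, limma adjusted p = 0.397).

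Of 29 tested genes of amino acid sensing by mTORC1, 3 were higher and 1 was lower, which is 13.8% called against 17.5% of all genes tested. Mlst8, a subunit of the mTOR complexes, differed by 0.47 (limma adjusted p = 0.00524), Depdc5, part of an inhibitor of the pathway, by 0.37 (adjusted p = 0.0217), and Mtor by 0.38 (adjusted p = 0.0415). Fnip2, a partner of folliculin, differed by -0.30 (adjusted p = 0.0433). The median was 0.0868. With the mean of kept probes Depdc5 did not pass (0.25, adjusted p = 0.120), and Fnip2 did not pass with normexp correction (-0.0910, adjusted p = 0.575). Leaving out single arrays ended the call of Depdc5 in 3 of 8 fits and those of Fnip2 and Mtor in 7 of 8, with adjusted p-values up to 0.0644, 0.108 and 0.105.

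Of 42 genes of liver amino acid catabolism, 6 were higher and 3 lower, which is 21.4% called against 17.5% of all genes tested, with a median of -0.0082. Gldc, the glycine-cleaving dehydrogenase, averaged 13.27 ± 0.14 in AdLeXis and 12.40 ± 0.15 in AdGFP (SD, n = 4 each; log2 difference 0.87, limma adjusted p = 0.00229). Sdsl, a serine dehydratase-like enzyme, differed by 0.67 (adjusted p = 0.00410). The other higher genes were Prodh2, Bckdha, Amdhd1 and Uroc1, of hydroxyproline, branched-chain amino acid and histidine breakdown, at 0.43 to 0.57. Glul, glutamine synthetase, which hepatocytes around the central vein make, differed by -0.39 (adjusted p = 0.0116), Hgd, of tyrosine breakdown, by -0.42 (adjusted p = 0.0371) and Oat, which breaks down ornithine, by -0.72 (adjusted p = 0.0492). Without single arrays Hgd lost its call in 7 of 8 fits, with adjusted p-values up to 0.0976, and Oat in 6 of 8, with adjusted p-values up to 0.111. Likewise Uroc1 lost its call in 7 of 8 fits and Amdhd1 in 6, with adjusted p-values up to 0.102 and 0.0929. Hepatocyte markers were lower for 9 of 10 in the same arrays, with summed intensities of 1757550 to 2065740 in AdLeXis and 2687420 to 2805710 in AdGFP, and their part in the lower genes was not tested.

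Among 9 tested amino acid and peptide carriers outside the families, 2 were higher and 1 was lower, which is 33.3% called against 17.5% of all genes tested. Slc17a8, a vesicular glutamate carrier, averaged 8.65 ± 0.45 in AdLeXis and 6.91 ± 0.33 in AdGFP (SD, n = 4 each; log2 difference 1.74, limma adjusted p = 0.00328). The lysosomal histidine and peptide carriers went opposite ways, Slc15a4 with 0.42 (adjusted p = 0.0349) and Slc15a3 with -0.56 (adjusted p = 0.0135). Slc15a4 did not pass with median scaling (0.34, adjusted p = 0.124) or without any of 5 single arrays (adjusted p up to 0.0831). The median over the 9 was 0.10.

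**Figure D5:**
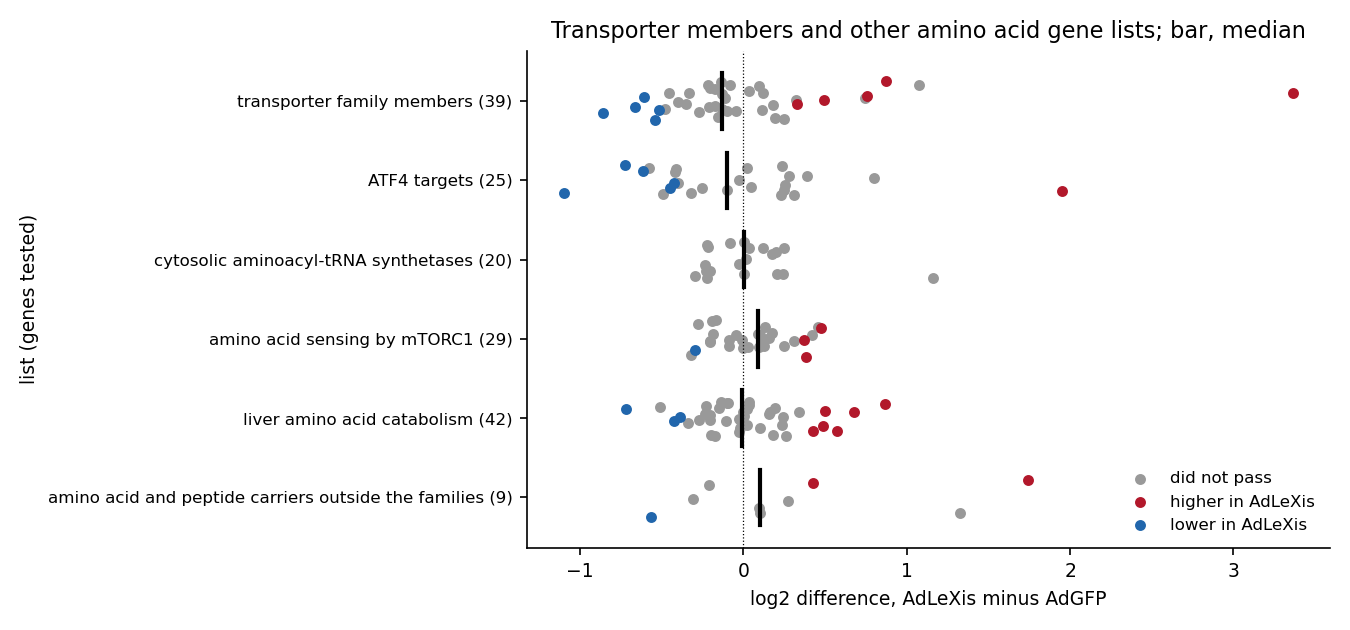
Log2 difference, AdLeXis minus AdGFP, of the 39 tested transporter members and of the tested genes of 5 other lists (points; black bar, median of the list). Red points are higher and blue points lower at an adjusted p under 0.05. The medians run from -0.13 for the transporter members to 0.10 for the carriers outside the families, and each list has points on both sides of 0.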

How the data were processed

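Liver RNA was hybridised to 8 1-colour Agilent arrays. Per the file headers, the authors read the arrays with Agilent Feature Extraction 11.5.1.1. The deposited values are linear spot intensity, with background subtracted and a spatial trend removed on each array, and were not scaled across arrays. The deposited value table holds the same intensity to within a relative difference of 0. The number of arrays limits the precision.

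Processed signals were put on the log2 scale and set to each array's 75th percentile, control and outlier spots were left out and spots of a probe were averaged. Probes had to be well above background on 4 or more of the arrays and to have values on 2 or more in either group, which kept 34428. A gene was represented by its kept probe of highest mean. A RefSeq table of assembly GRCm38.p6 named 27741 of 55681 probes by accession and 3347 by symbol, and 24593 kept the file's name. Probe positions are mm9, per the file headers.

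Groups were compared with limma 3.58.1 in R 4.3.3, two-sided, with Benjamini-Hochberg adjustment over all 23975 genes. Calls were made at an adjusted p under 0.05, and adjusted p-values given without a source come from this fit. On simulated data for this comparison with 23975 genes, 20 of 67 genes changed 1.5-fold, 48 of 67 changed 2-fold and 61 of 66 changed 4-fold were recovered in the right direction, and 9 unchanged genes were called. No other genes were changed there and the noise was independent, whereas 17.5% of genes were called in the data. The adjustment depends on the share of genes changed, so these recovery rates need not hold for the data. Ratios of light chains to their heavy chain within an array were compared by exact permutation tests, and other ratios were given no test.

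Where a group had no array with the member well above background, its level there is a limit: for each array, the member's own signal or the dimmest signal that counted as well above background, whichever was higher. The mean of these was set against the mean over all arrays of the other group, including arrays not well above background. The result is written as a ratio and is not a lower bound.

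The members and gene lists were chosen with earlier results of these data known. The text names each called member, the 2 brightest kept members of each family, members detected in a single group, the heavy and light chains, and of each other list the 2 higher and 2 lower genes of smallest p, with the genes that check the labels; other members are named to account for them, except 1 that is counted but not reported here, and other list genes were chosen after their values were seen. Alternatives were normexp background correction, 3 other normalizations, 2 other filters on dim probes, the mean of probes, another variance model, a block on the replicate number, the deposited value table and leaving out each array. The deposited value table holds the same intensities, so its outcome was fixed in advance. Normexp correction with quantile normalization was added after seeing the data.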

Additional observations from a re-analysis of the deposited data

Results flagged for a closer look

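In 4 of the 94 groups of 4 member values examined, 1 array stood apart from the other 3 by more than Dixon's test allows for the gap as a share of the group's range; chance flags about 1 in 20 groups. Slc6a13, the GABA and taurine carrier, stood at 14.50 in AdLeXis replicate 1, below 14.71 to 14.74 on the other AdLeXis arrays, and that array was still above the AdGFP arrays. Slc6a8, the creatine carrier, stood at 10.06 in AdGFP replicate 4, above 9.28 to 9.38 on the other AdGFP arrays. The same AdGFP array stood apart for Slc6a20a, the proline carrier, at 5.48 against 4.95 to 5.02. It did so too for Slc6a17, a vesicular carrier that was not tested, at 5.61 against 0.73 to 1.27. So 3 of the 4 values belong to AdGFP replicate 4, and the reason was not tested.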

How the results depend on the processing

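Of the 10 called members, Slc43a1 and Slc7a1 stayed called under all 19 alternatives, and Slc38a5 under the 18 in which it was tested. Slc38a1 and Slc6a16 stayed called under 18, Slc43a2 under 17, Slc6a8 under 16, Slc1a4 under 11, Slc7a8 under 10 and Slc6a13 under 9. None of the 10 changed direction. The deposited value table, counted among the alternatives, holds the same intensities, so its calls were bound to be the same. The most influential choice was background correction. With normexp correction the median of all genes shifted to -0.19 and that of the members to -0.27, and 12649 genes were called, so changes there are relative to that shift. It gave 8 higher and 17 lower members, 5 calls in Slc1, 1 in Slc3, 4 in Slc7, 6 in Slc6 and 7 in Slc38. Family medians with it were -0.38 for Slc1, -0.33 for Slc7, -0.15 for Slc38 and -0.24 for Slc43, and Slc38a11 turned to -0.41. The other lists then had 6 higher ATF4 targets, 4 higher and 2 lower synthetases, 6 higher and 4 lower mTORC1 genes, 13 higher and 6 lower catabolic genes and 4 lower carriers outside the families. The part of dim probes in these shifts was not tested. With normexp correction and quantile normalization 5178 genes were called; Slc3 had 1 call, the medians were -0.0352 for Slc38 and -0.25 for Slc43, and the lists had 4 higher and 2 lower ATF4 targets, 2 higher and 2 lower synthetases, 4 lower mTORC1 genes, 10 higher and 1 lower catabolic genes and 3 lower outside carriers.

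With median scaling 8 members were lower, the Slc38 median was -0.0706, 1 synthetase was lower, and 1 mTORC1 gene and 1 outside carrier were higher. Quantile normalization gave a Slc38 median of 0.0598, 2 higher ATF4 targets and 2 lower mTORC1 genes, and cyclic loess 2 higher ATF4 targets. With no filter on dim probes 3 members were lower, Slc1 had 0 calls and Slc7 1, the medians were -0.0220 for Slc36 and -0.0975 for Slc38, and 0 mTORC1 and 1 catabolic gene were lower and 1 outside carrier was higher; more genes were tested there. Probes well above background on all 8 arrays gave 1 call in Slc38 with a median of -0.12, and 2 higher ATF4 targets. The mean of probes gave 1 call in Slc38 and 1 higher mTORC1 gene. The variance model with trend gave 8 lower members, 2 calls in Slc1, 3 higher ATF4 targets, 1 higher and 2 lower synthetases and 2 lower mTORC1 genes.

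The titles number both groups 1 to 4. Same-numbered arrays deviated from their group means with correlations of 0.0135, 0.0648, 0.117 and 0.00145, so the numbers were not taken to pair the arrays. With the replicate block 4 members were higher and 4 lower and 3147 genes were called; Slc6a13 (adjusted p = 0.0572) and Slc1a4 (adjusted p = 0.0528) lost their calls. Slc1 had 0 calls with the block, ATF4 targets 2 higher, mTORC1 genes 1 higher and 0 lower, and outside carriers 1 higher.

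Without 1 array at a time, 3 to 5 members were higher and 3 to 5 lower, with 0 to 2 calls in Slc1, 1 to 2 in Slc7 and 1 to 3 in Slc6. ATF4 targets had 1 to 2 higher and 3 to 5 lower, synthetases 0 to 2 lower, mTORC1 genes 1 to 3 higher and 0 to 1 lower, catabolic genes 1 to 2 lower and outside carriers 1 to 2 higher. Causes of these changes were not tested. Members near background, such as Slc1a1, Slc38a5, Slc38a11 and Slc6a4, have the least certain differences.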
